A study of Homo sapiens with 6 samples.

Results

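The short arm of human chromosome 5 carries a long stretch poor in genes in which 5 classical cadherin genes, CDH18, CDH12, CDH10, CDH9 and CDH6, are the main coding genes. The open chromatin of this stretch was examined in RKO cells, an established colon cancer cell line, by ATAC-seq, in which a transposase cuts accessible DNA and the cut sites gather into peaks. Members were chosen by position alone: every peak with its midpoint on chromosome 5 from 18 to 32 Mb (GRCh38) was taken, which gave 486 of the 442008 peaks of all samples. Joined across samples wherever they shared 1 bp or more, they formed 134 of 102770 regions. The groups were 3 samples that received aphidicolin (APH) at 0.2 µM over 16 h and 3 samples that received the solvent DMSO. APH inhibits the replicative DNA polymerases and at this dose imposes a low replication stress. All 6 samples were RKO cells from the same supplier grown in 5% O2. The comparison asks whether chromatin accessibility of the cadherin stretch differed under low replication stress.

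Classical cadherins are calcium-dependent adhesion proteins of the cell membrane that bind the same or related cadherins on a neighbouring cell and hold the actin cytoskeleton through catenins. Type II members such as CDH6, CDH9, CDH10, CDH12 and CDH18 are known mainly from the nervous system and from kidney, where combinations of them sort groups of cells, while CDH1 (E-cadherin) is the main cadherin of intestinal epithelium. Genes of this kind often lie far from other genes, with long intergenic deserts on both sides.

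Each deposited peak carries 1 value, the mean of the coverage map of its sample over the peak. Peaks were called in each sample separately, so that a site without a peak is a site that did not pass the caller in that sample. The lists give no read totals, so sequencing depth is unknown here and no counting interval can be given. The 6 lists held between 64511 and 84510 peaks, and the mean value over all peaks was 82.2 ± 3.55 (SD, n = 3) in DMSO and 71.2 ± 1.79 in APH. The mean list length was 69190 peaks in DMSO and 78146 in APH, 12.9% more, with overlap (exact permutation p = 0.2). Numbers of peaks given below without a share are not adjusted for this difference. A peak lay within 1 kb of between 58.7% and 59.3% of 19630 protein-coding gene starts. Among 11 colon epithelium markers, EPCAM, CDX2, KRT8, KRT18 and LGR5 had a peak at the start in all 6 samples, KRT20 had one in 2 APH samples, and CDH1, CDH17, CDX1, VIL1 and HNF4A had none. Of 4 fibroblast markers 3 had a peak in all 6 samples and PDGFRB in 1, whereas the 2 endothelial and 3 blood markers that could be looked up had none. The study describes independent experiments, and the labels give replicate numbers without saying which samples share an experiment. In a bulk assay, more cells with an open site and more cuts per cell at that site cannot be told apart.

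The gene starts are shown first, because most cadherin starts had no peak while 1 promoter of the stretch had the highest values. The sequences are the 250 bases before the start from RefSeq (GRCh38.p14), written 5′ to 3′ on the strand of the gene, with each CG dinucleotide in capitals. The first is the promoter that DROSHA, the nuclease that cuts primary miRNA transcripts, shares with the divergent gene C5orf22 (chr5:31532094-31532343, minus strand), and it lay under a peak in all 6 samples. The second precedes an internal start of CDH12 (chr5:22212770-22213019, minus strand), which had a peak in the 3 APH samples and in no DMSO sample. The remaining sequences precede the gene starts of CDH12 (chr5:22853345-22853594), CDH18 (chr5:20575714-20575963), CDH10 (chr5:24644979-24645228) and CDH9 (chr5:27038587-27038836), all on the minus strand, where no sample had a peak.
DROSHA: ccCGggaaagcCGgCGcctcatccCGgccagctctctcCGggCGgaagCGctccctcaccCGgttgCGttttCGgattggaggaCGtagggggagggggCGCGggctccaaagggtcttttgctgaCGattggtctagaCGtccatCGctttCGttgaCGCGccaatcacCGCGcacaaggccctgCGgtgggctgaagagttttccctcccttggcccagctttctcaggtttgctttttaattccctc
CDH12 internal start: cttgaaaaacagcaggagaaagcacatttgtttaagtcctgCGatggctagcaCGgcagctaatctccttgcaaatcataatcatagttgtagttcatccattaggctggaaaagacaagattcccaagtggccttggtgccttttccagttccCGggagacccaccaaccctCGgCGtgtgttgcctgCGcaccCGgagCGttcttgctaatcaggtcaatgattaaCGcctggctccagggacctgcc
CDH12 gene start: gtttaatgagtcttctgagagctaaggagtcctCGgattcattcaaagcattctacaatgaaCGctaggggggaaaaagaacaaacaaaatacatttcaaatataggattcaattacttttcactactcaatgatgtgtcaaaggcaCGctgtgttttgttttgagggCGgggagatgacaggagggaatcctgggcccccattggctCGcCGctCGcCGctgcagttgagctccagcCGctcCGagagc
CDH18 gene start: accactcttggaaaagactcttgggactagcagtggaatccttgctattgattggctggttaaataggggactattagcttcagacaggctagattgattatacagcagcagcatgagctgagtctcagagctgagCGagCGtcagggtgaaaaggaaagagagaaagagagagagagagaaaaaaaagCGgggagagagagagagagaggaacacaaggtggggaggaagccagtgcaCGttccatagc
CDH10 gene start: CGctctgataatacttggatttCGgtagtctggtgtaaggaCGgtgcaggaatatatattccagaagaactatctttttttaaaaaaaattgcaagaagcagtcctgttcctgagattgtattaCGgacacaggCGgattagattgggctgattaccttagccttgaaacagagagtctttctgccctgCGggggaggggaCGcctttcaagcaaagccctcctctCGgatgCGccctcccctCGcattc
CDH9 gene start: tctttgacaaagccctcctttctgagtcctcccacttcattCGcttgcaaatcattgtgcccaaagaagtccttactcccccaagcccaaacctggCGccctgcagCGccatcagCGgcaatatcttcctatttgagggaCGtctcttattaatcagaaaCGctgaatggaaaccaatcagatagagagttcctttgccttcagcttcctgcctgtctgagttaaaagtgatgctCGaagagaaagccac

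These 250 bases held 22 CG in the DROSHA promoter, 9 at the internal start of CDH12, 10 at the CDH12 gene start, 4 in CDH18, 10 in CDH10 and 7 in CDH9. Over the 300 bases that RefSeq promoters span here (250 before and 50 after the start), the 8 promoters of CDH18, CDH12, CDH10 and CDH9 held between 1 and 18 CG with a median of 8.50, against a median of 14 over all 34961 promoters and 3 over the 49 promoters of the stretch. CG reads the same on both strands, so each site was counted once. Of all promoters, 38.8% lay under a peak in all 6 samples, and of the 49 in the stretch 2 did (4.08%), those of DROSHA and C5orf22. The 49 do not include CDH6, PDZD2, GUSBP1 and LINC02100, of which GUSBP1 and LINC02100 had a start peak in all 6 samples, so the share of the stretch is that of the promoters looked up. Among promoters with at least 20 CG the share was 70.3% overall and 2 of 6 in the stretch. The other 4 were those of CDH18-AS1 (24 CG), LINC02228 (33 CG), LINC02211 (27 CG) and 1 start of LOC124900953 (25 CG), none with a peak. These 4 belong to noncoding genes.

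None of CDH18, CDH10, CDH9 and CDH6 had a peak within 1 kb of its start in any of the 6 samples. For 3 of them the nearest region lay a similar distance inside the gene. It was 2766 bp downstream of the CDH18 start (chr5:20572610-20572947), 2592 bp downstream of the CDH10 start (chr5:24642059-24642386) and 2670 bp downstream of the CDH6 start (chr5:31196356-31196684). The CDH18 region had values of 23.3, 45.4 and 25.4 in DMSO and 40.5, 31.1 and 22.1 in APH, and the groups overlapped. The CDH10 region had values of 31.3, 43.7 and 23.9 in DMSO and 32.8 and 41.3 in APH replicates 1 and 2, and no peak in APH replicate 3. The CDH6 region had values of 28.0, 25.6 and 24.8 in DMSO and 31.6, 37.0 and 30.7 in APH, so that each APH sample exceeded every DMSO sample. This order was found in 4.21% of regions shared by all samples, and in 6.98% of those below their median level of 67.5. The log2 change of the CDH6 region was 0.33 (SE 0.192, limma adjusted p = 0.505), which did not pass the threshold. The nearest region to the CDH9 start was 86058 bp upstream, outside the gene.

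CDH12 was the only member with a peak at any annotated start. At its gene start the nearest region was 65217 bp away and was found in APH replicate 2 alone, with a value of 24.1. The peak at the internal start (chr5:22212615-22212954) had values of 27.9, 24.8 and 19.7 in APH replicates 1, 2 and 3, and no peak was called there in any DMSO sample. It also lies 183 bp from the start of the noncoding gene LOC105374682, which runs the other way. These values are low: the lowest value of any peak in the series was 15.1, and with the strongest 64511 peaks of each sample this region was kept in APH replicate 1 alone. It was the only region of the stretch with a peak in all APH and no DMSO sample, a pattern that 1.11% of all regions had. A second region 1287 bp from the same start (chr5:22214056-22214433) had a peak in every sample, at 46.0, 52.8 and 37.2 in DMSO and 56.5, 62.5 and 38.5 in APH, and the groups overlapped. The converse pattern, all DMSO and no APH samples, was not found in the stretch and occurred in 0.184% of all regions.

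Over the bodies of the 5 cadherin genes, 13, 16 and 14 peaks were found in DMSO and 20, 22 and 17 in APH. Every APH sample lay above every DMSO sample, with 14.3 ± 1.53 (SD, n = 3) against 19.7 ± 2.52 peaks. Relative to the total number of peaks of the sample, the values were 0.0197%, 0.0207% and 0.0217% in DMSO and 0.0251%, 0.0260% and 0.0242% in APH, again without overlap. The exact permutation test gave p = 0.1 (two-sided) for the number and for the share, the smallest that 3 against 3 samples allow, so p below 0.05 could not be reached. With the strongest 64511 peaks of each sample, 12.7 peaks in DMSO and 13.3 in APH remained, the groups overlapped and the exact permutation p was 0.6. Averaged over the peaks of these genes, the value was 33.7 ± 3.27 in DMSO and 32.3 ± 2.86 in APH (exact permutation p = 0.6), and as log2 over the sample mean it was −1.29 ± 0.125 and −1.14 ± 0.116, with overlap (exact permutation p = 0.3).

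By gene, CDH12 had 4, 6 and 3 peaks in DMSO and 7, 9 and 6 in APH over 1.10 Mb. CDH18, of almost the same length, had 5, 5 and 6 in DMSO and 6, 8 and 4 in APH. CDH10 had 1 peak in each DMSO sample and 3, 1 and 2 in APH. CDH9 had 1 peak in DMSO replicates 2 and 3 and in APH replicates 2 and 3, and none in the others. CDH6 had 3 peaks in each DMSO sample and 4, 3 and 4 in APH. The 2 groups overlapped in each of the 5 genes taken alone. Per length, CDH6 carried 22.1 peaks per Mb in DMSO and 27.1 in APH, against 4.83 and 5.43 in CDH18, 3.93 and 6.65 in CDH12, 6.33 and 12.7 in CDH10, and 4.22 in both groups in CDH9.

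The cadherin genes held 29 regions, of which 10 had a peak in all 6 samples: 4 in CDH18, 3 in CDH12, 3 in CDH6 and none in CDH10 and CDH9. A further 12 (41.4%) had peaks in APH alone and none in DMSO alone, where 18.5% and 7.03% of all regions did. Of these 12, 8 were seen in 1 sample, 3 in 2 samples and 1 in 3 samples, and their mean values ran from 20.1 to 30.3. CDH12 held 6 of them, CDH18, CDH10 and CDH6 held 2 each and CDH9 held none. With the strongest 64511 peaks of each sample, 18 regions were left in these genes, 3 with peaks in APH alone (16.7%, against 10.7% of all regions) and 1 with peaks in DMSO alone (5.56%, against 11.8%). The strongest region within a cadherin gene, at chr5:20276348-20277000 in CDH18, had values of 53.1, 46.4 and 61.9 in DMSO and 53.9, 78.2 and 47.5 in APH, with overlapping groups. A region of CDH12 (chr5:21919457-21919779) had 36.1, 37.8 and 32.2 in DMSO and 29.6, 30.3 and 25.1 in APH, so that the APH samples lay below the DMSO samples (log2 −0.31, SE 0.198, limma adjusted p = 0.539). This order was found in 14.4% of shared regions, and in 4.20% of those below a level of 67.5. The separated regions of CDH12 and CDH6 thus went in opposite directions.

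**Figure D1:**
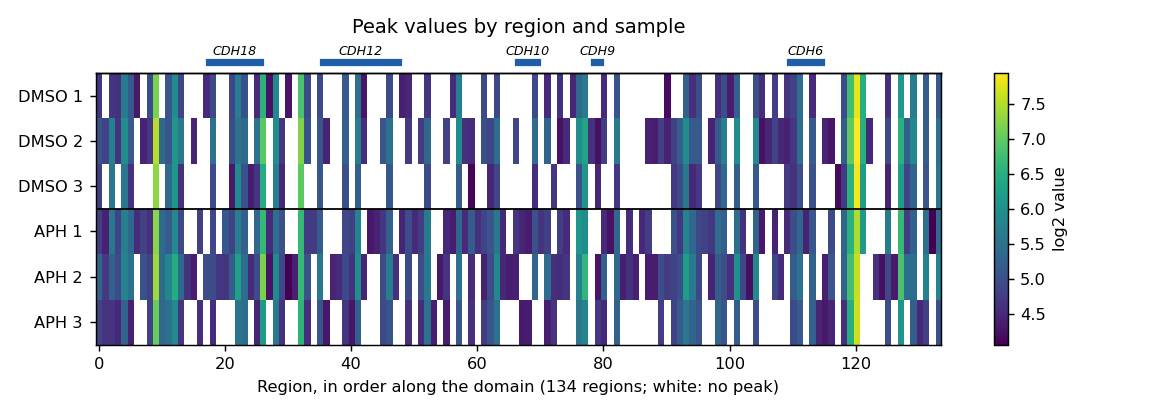
Value of each of the 134 regions (x axis, in order along the stretch) in each of the 6 samples (y axis), as colour on a log2 scale, with white where no peak was called and blue bars over the regions of the 5 cadherin genes. Of the 134 columns 43 are filled in all samples, among them the one with the highest values, and the 36 filled in APH samples alone have a median value of 22.5.

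The deserts were then taken from one coding gene to the next. The longest, of 4.16 Mb between CDH9 and CDH6, had 14, 21 and 11 peaks in DMSO and 21, 24 and 12 in APH. Among the 6 deserts from the left end to CDH6, the 2.24 Mb between CDH10 and CDH9 had the fewest peaks per length, 2.09 per Mb in DMSO and 2.39 in APH, with 5, 6 and 3 peaks in DMSO and 6, 6 and 4 in APH. Between PRDM9, which encodes the histone methyltransferase that places meiotic recombination sites, and CDH10 there were 4, 8 and 4 peaks in DMSO and 11, 10 and 6 in APH over 0.959 Mb. The 2 cadherin genes at the left end were set apart by 1.17 Mb with 7, 6 and 5 peaks in DMSO and 8, 9 and 6 in APH. From the left end of the stretch to CDH18, over 1.47 Mb, there were 12, 14 and 8 peaks in DMSO and 15, 16 and 13 in APH, and from CDH12 to PRDM9, over 0.654 Mb, there were 3, 3 and 1 in DMSO and 5, 3 and 3 in APH. In each of these 6 deserts the mean number of peaks was larger in APH and the groups overlapped. Summed over these 6, with that between CDH9 and CDH6 counted only as far as 31 Mb, 44, 56 and 31 peaks were found in DMSO and 65, 67 and 44 in APH, or 0.0625% ± 0.0128 and 0.0745% ± 0.0102 of all peaks (SD, n = 3, exact permutation p = 0.3). This difference of 0.0120 percentage points was 0.00482 without DMSO replicate 3, and −0.000848 among peaks of at least the median value. The mean value of desert peaks, as log2 over the sample mean, was −1.10, −0.99 and −0.93 in DMSO and −0.92, −0.86 and −0.90 in APH. All APH samples were higher on this scale, by 0.11 (exact permutation p = 0.1). With all deserts as far as 32 Mb the groups overlapped on it (0.10, exact permutation p = 0.2), and as deposited the mean value up to 31 Mb was 41.0 in DMSO and 38.4 in APH, with overlap (exact permutation p = 0.4). At the right end, the 0.0713 Mb between CDH6 and DROSHA had 2 peaks in DMSO replicate 2 and 1, 2 and 2 in APH, the 0.0841 Mb between C5orf22 and PDZD2 had 2 peaks in APH replicate 2 alone, and the gap between DROSHA and C5orf22 lay under their shared promoter peak.

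The other coding genes lie mostly at the right end. PRDM9 had no peak within 19995 bp of a start and 1 peak in its body, in APH replicate 3. PDZD2, which encodes a protein with several PDZ domains, had no peak within 7924 bp of its start and 5, 6 and 6 peaks in DMSO and 7, 7 and 6 in APH over the part of its body inside the stretch. The strongest of them (chr5:31809022-31809473) had values of 70.4, 92.8 and 75.1 in DMSO and 101.5, 114 and 67.4 in APH, with overlap. C5orf22 and DROSHA were the coding genes with a start peak in every sample. For the coding genes LOC124901178 and LOC107986346 no start was known, since the strand of 40 of the 125 genes of the stretch could not be found. Of all 125 genes, 10 had a start peak in at least 1 sample and 4 in all 6: DROSHA, C5orf22, the pseudogene GUSBP1 and the noncoding LINC02100. LOC105374672, LOC105374683, SUCLG2P4 and RNU6-363P had one in a single APH sample each, with values between 23.1 and 28.4, and CDH12 and LOC105374682 shared the region described above.

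Across the whole stretch, 67, 87 and 57 peaks were found in DMSO and 98, 104 and 73 in APH. The means were 70.3 ± 15.3 and 91.7 ± 16.4 (SD, n = 3, exact permutation p = 0.2), and DMSO replicate 2 lay above APH replicate 3. With the strongest 64511 peaks of each sample the means were 60.3 and 64.7 (exact permutation p = 0.3), and among peaks of at least the median value 15.3 and 15.7 (exact permutation p = 1). Relative to the total of each sample these were 0.102%, 0.113% and 0.0884% in DMSO and 0.123%, 0.123% and 0.104% in APH (exact permutation p = 0.2). The rest of chromosome 5 took 4.95% ± 0.0592 and 5.01% ± 0.0408 of all peaks (exact permutation p = 0.3). Of the peaks of chromosome 5, the stretch held 1.998% ± 0.220 in DMSO and 2.27% ± 0.192 in APH (exact permutation p = 0.2). These were 1.87% and 2.01%, without overlap, with the strongest 64511 peaks of each sample (exact permutation p = 0.1). Among peaks with a value of 49.7, the median of the 6 lists, or more, the share of all peaks was 0.0418% in DMSO and 0.0408% in APH. The share of the peaks of chromosome 5 was then 0.899% and 0.860%, the reverse order, with overlap. The covered length was 23.1 ± 4.49 kb in DMSO and 29.6 ± 4.57 kb in APH (exact permutation p = 0.2), and with the strongest 64511 peaks 20.7 and 22.8 kb, without overlap (exact permutation p = 0.1). Among peaks of at least the median value it was 6.91 and 6.97 kb, with overlap.

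Peak values of the stretch were low in both groups. The mean value was 40.9, 44.9 and 44.03 in DMSO and 38.7, 41.3 and 37.9 in APH (exact permutation p = 0.2). The mean over all peaks was lower in every APH sample, and measured against it the stretch was higher in APH. The log2 ratio of the stretch to all peaks was −0.94, −0.92 and −0.92 in DMSO and −0.84, −0.82 and −0.90 in APH, a difference of 0.07 with no overlap (exact permutation p = 0.1). With the strongest 64511 peaks of each sample the difference was 0.08 and the groups overlapped (exact permutation p = 0.2). Against the rest of chromosome 5 the log2 ratio was −0.81 ± 0.00995 in DMSO and −0.76 ± 0.0439 in APH, and the groups overlapped (exact permutation p = 0.2). This difference of 0.05 was 0.09 with bounds of 18 to 31 Mb and 0.12 with bounds of 19 to 31 Mb, both without overlap (exact permutation p = 0.1), and 0.02 with medians (exact permutation p = 0.8). It was 0.0311 without APH replicate 2 and 0.0750 without APH replicate 3.

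**Figure D2:**
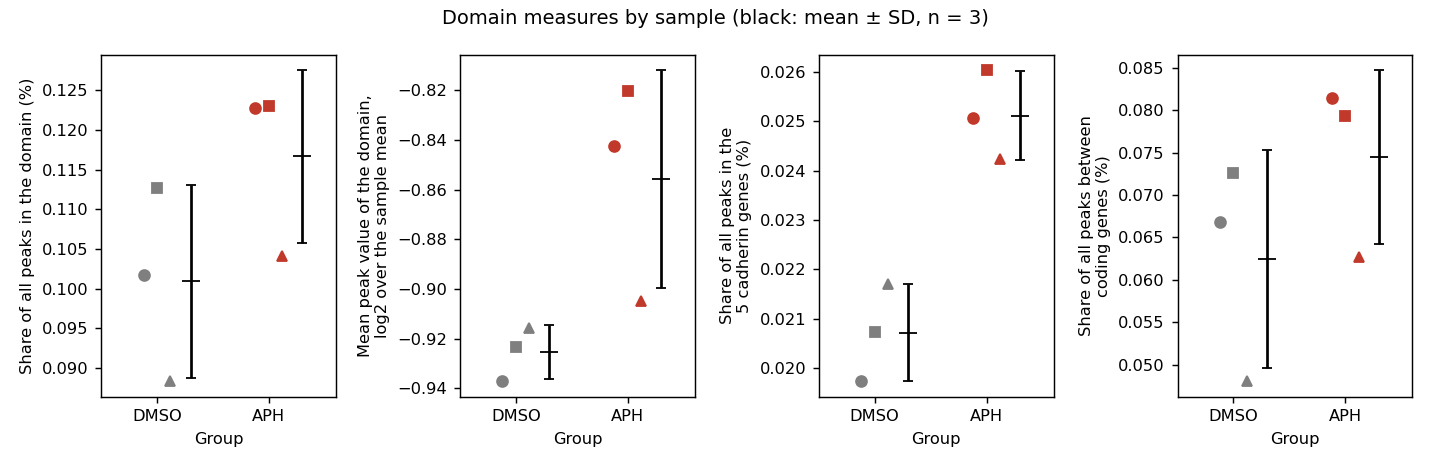
Each panel gives 1 measure (y axis, percent of all peaks or log2) for the 3 DMSO (grey) and 3 APH (red) samples, with the replicates as circle, square and triangle and the mean ± SD in black. The groups are apart for the share of peaks in the 5 cadherin genes and for the relative value, and overlap for the shares of the whole stretch and of the deserts.

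At the left bound, the first region inside (chr5:18010086-18010417) had values from 25.7 to 39.8 over the 6 samples, and the last region before it (chr5:17838560-17838876) had peaks in 5 samples with values from 20.9 to 37.0. At the right end, the last region inside (chr5:31988298-31988734) had values from 32.3 to 55.8 and the first region after it (chr5:32028052-32028406) from 25.9 to 58.5.

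In steps of 1 Mb, the 14 windows had a median of 4.67 peaks per sample, against 19.7 over the 165 other windows of chromosome 5 and 21.5 over all 2887 windows of the genome with a peak. The windows at both ends were the densest, with 11, 13 and 8 peaks in DMSO and 14, 14 and 12 in APH at 18 to 19 Mb, and 13, 18 and 15 in DMSO and 17, 18 and 15 in APH at 31 to 32 Mb. The 12 windows between held from 1 to 10 peaks per sample. To the left of PRDM9 there were 3, 3 and 2 in DMSO and 4, 6 and 2 in APH at 19 to 20 Mb, 5, 4 and 5 against 5, 6 and 4 at 20 to 21 Mb, and 6, 7 and 5 against 7, 10 and 7 at 21 to 22 Mb. At 23 to 24 Mb, around PRDM9, there were 5, 7 and 3 against 10, 7 and 7, and at 25 to 26 Mb, between CDH10 and CDH9, 2, 3 and 1 against 4, 4 and 2. In the desert before CDH6 there were 4, 9 and 5 against 6, 9 and 6 at 28 to 29 Mb, 4, 4 and 3 against 6, 7 and 3 at 29 to 30 Mb, and 3, 4 and 1 against 3, 2 and 1 at 30 to 31 Mb. The groups overlapped in each of these 8 windows. Below 31 Mb, 55.0 ± 13.5 peaks in DMSO stood against 75 ± 14.9 in APH, and in the last 1 Mb 15.3 ± 2.52 against 16.7 ± 1.53. Below 31 Mb, which is all of the stretch but the last 1 Mb, the difference in the mean number was 20 peaks, of 21.3 over the whole stretch. Peaks between coding genes below 31 Mb made up 15 of it, and the 5 cadherin genes, CDH6 included, differed by 5.33.

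**Figure D3:**
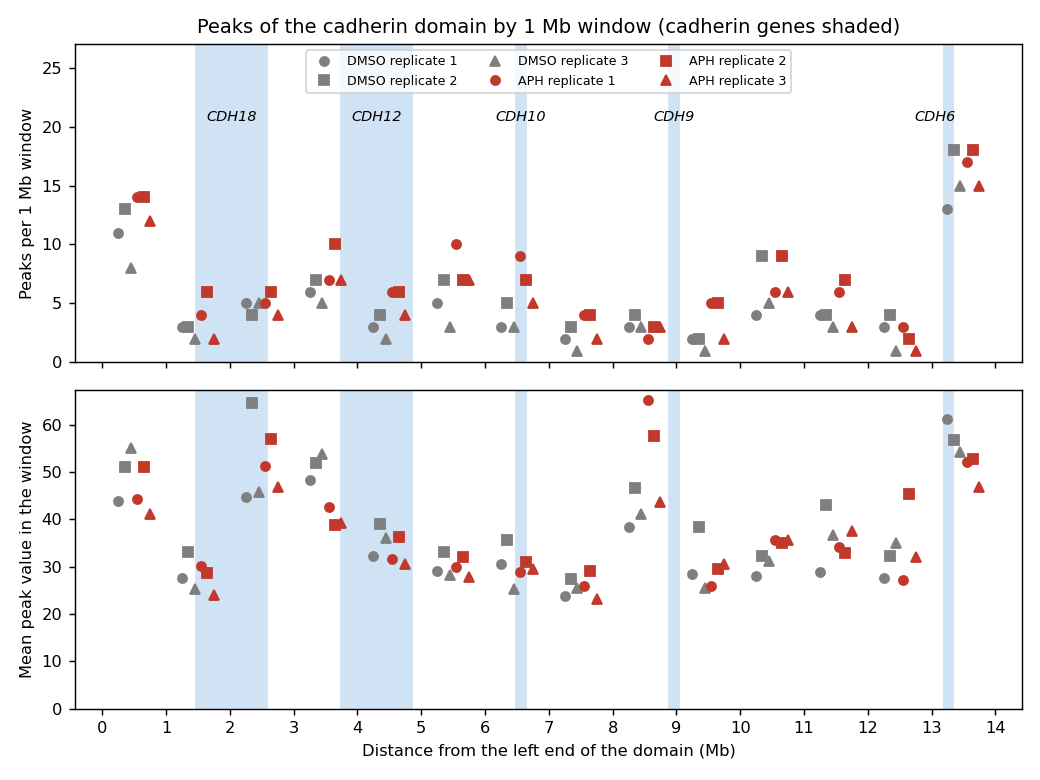
Number of peaks (top) and mean peak value (bottom) in each 1 Mb window, against the distance from the left end of the stretch in Mb, for 3 DMSO (grey) and 3 APH (red) samples, with the replicates as circle, square and triangle and the cadherin genes shaded. The inner windows hold from 1 to 10 peaks and the last window from 13 to 18.

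The share of all peaks per window was compared between APH and DMSO with limma over the 2852 windows of the genome with a mean of at least 1 peak. No window passed an adjusted p of 0.05, in the genome (0%) or in the stretch, while 287 windows of the genome and 2 of the stretch had an unadjusted p below it. These 2 were 24 to 25 Mb, around CDH10, with a log2 change of 0.60 (SE 0.229, limma adjusted p = 0.394), and 27 to 28 Mb, with 0.69 (SE 0.306, limma adjusted p = 0.463). The first had 3, 5 and 3 peaks in DMSO and 9, 7 and 5 in APH. The second, at the right end of CDH9, had 2, 2 and 1 in DMSO and 5, 5 and 2 in APH. The median change was 0.19 over the 14 windows, 10 of which were above 0, against 0.0012 over the rest of chromosome 5 and 0.0053 over all windows. With the strongest 64511 peaks of each sample the changes of these 2 windows were −0.09 and 0 and the median of the 14 was 0.07. The median was 0.08 without APH replicate 2 and 0.31 without APH replicate 3.

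The APH samples were all above the DMSO samples in 2 windows, at 22 to 23 Mb within CDH12 and at 24 to 25 Mb, and all below in 1, at 26 to 27 Mb. In the genome these patterns were found in 7.92% and 7.71% of windows, so that 2 and 1 of 14 are close to the background, and with the strongest 64511 peaks of each sample the groups were apart in none of the 14. The number with APH on top was 6 without APH replicate 3 and 4 without APH replicate 2, and the number with DMSO on top was 2 without any 1 of the DMSO replicates. The window at 22 to 23 Mb had 3, 4 and 2 peaks in DMSO and 6, 6 and 4 in APH (log2 0.50, SE 0.244, limma adjusted p = 0.501). The window at 26 to 27 Mb, which holds the start of no coding gene, had 3, 4 and 3 in DMSO and 2, 3 and 3 in APH (log2 −0.42, SE 0.269, limma adjusted p = 0.638). Grouped by the number of peaks, the medians were as follows. For a mean of 5 to 10 peaks it was 0.31 over 4 windows of the stretch, 0.07 over 30 other windows of chromosome 5 and 0.03 over the genome. For a mean of 1 to 5 peaks it was 0.21 over 8 windows of the stretch, −0.14 over 9 windows of chromosome 5 and 0.02 over the genome. For a mean of 10 to 20 peaks it was 0.04 over 2 windows of the stretch, 0.03 over 43 windows of chromosome 5 and 0.03 over the genome. These are descriptions, and neighbouring windows of the same samples are not independent.

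The mean peak value of a window over the mean of its sample gave no adjusted call either, 0% of 2817 windows, with 366 at an unadjusted p below 0.05. The median log2 change was 0.18 over the 14 windows, with 13 above 0, against 0.06 over the rest of chromosome 5 and 0.04 over all windows. Both the direction and the calls depended on the scale: with values as deposited the median of the 14 was −0.03, and 2 windows of the stretch and 711 of the genome passed. On the scale relative to the sample, the 8 windows of the stretch with a mean of 1 to 5 peaks changed by 0.08 to 0.59. The 9 such windows in the rest of chromosome 5 changed by 0.02 to 0.73, so that a rise was not particular to the stretch. The groups were apart with APH on top in 4 windows, beginning at 23, 25, 26 and 28 Mb, and with DMSO on top in none, where the genome had 15.8% and 3.9%. Without DMSO replicate 2 these counts were 8 and 1, and with the strongest 64511 peaks of each sample 3 and 1, with overlap at 26 to 27 Mb. On the deposited scale 1 window had APH on top and 2 had DMSO on top. The window at 28 to 29 Mb, in the desert between CDH9 and CDH6, had mean values of 28.1, 32.2 and 31.2 in DMSO and 35.6, 35.1 and 35.6 in APH, with a relative log2 change of 0.43 (SE 0.0943, limma adjusted p = 0.268). The window at 26 to 27 Mb had 38.4, 46.6 and 41.1 in DMSO and 65.1, 57.7 and 43.6 in APH, with 0.59 (SE 0.138, limma adjusted p = 0.268). These values rest on 2 to 9 peaks per sample. In the last window the values were 61.2, 56.7 and 54.2 in DMSO and 52.2, 52.8 and 46.9 in APH, lower in every APH sample (exact permutation p = 0.1), and relative to the sample the change was 0.03.

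**Figure D4:**
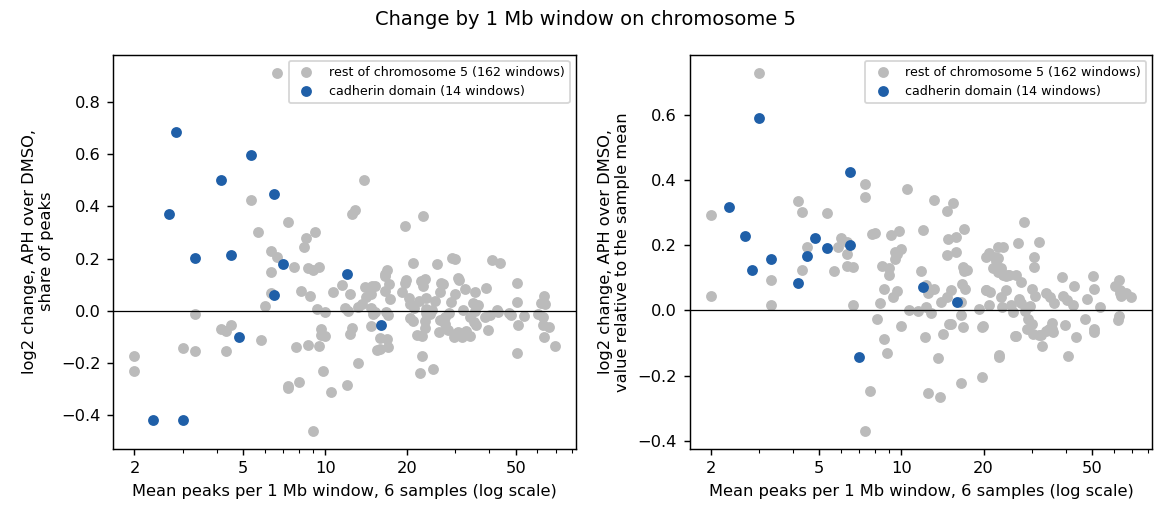
Log2 change of APH over DMSO in the share of peaks (left) and in the value relative to the sample mean (right) for each 1 Mb window of chromosome 5, against its mean number of peaks on a log axis. The 14 windows of the cadherin stretch (blue) lie among the windows with few peaks, with 10 of them above 0 on the left and 13 on the right.

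Of the 134 regions, 43 (32.1%) had a peak in all 6 samples, against 48.5% of 5120 regions in the rest of chromosome 5 and 48.8% of all regions. A peak in a single sample was found for 33 regions (24.6%). Peaks in APH alone were found for 36 regions (26.9%, against 18.5% of all regions) and peaks in DMSO alone for 5 (3.73%, against 7.03%). Of the 36, 28 were seen in 1 APH sample, and their median value was 22.5. With the strongest 64511 peaks of each sample the stretch held 12 regions in APH alone and 12 in DMSO alone of 92 (13.0% each, against 10.7% and 11.8% of all regions). This cut keeps the whole list of DMSO replicate 3, the shortest, and drops the most peaks from APH replicate 2, the longest. It is not a common threshold of strength, so it cannot show whether the imbalance held among stronger peaks.

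The values of the 43 shared regions were compared with limma over the 50148 regions of the genome that had a peak in every sample. None passed an adjusted p of 0.05, in the stretch or in the genome (0%), with 6296 regions of the genome and 6 of the stretch below 0.05 unadjusted. The median log2 change was 0.10 with 28 of 43 above 0, against −0.02 in the rest of chromosome 5 and −0.06 over all regions. It was −0.01 without DMSO replicate 3, −0.05 without APH replicate 2, 0.03 without DMSO replicate 1, and 0.23 and 0.25 without DMSO replicate 2 and without APH replicate 3. The median level of the 43 was 40.7, against 62.3 and 67.5, and over the genome 58.3% of the regions below 67.5 and 23.1% of the others were above 0. Below a level of 67.5 the median change was 0.12 over 36 regions of the stretch, 0.08 over the rest of chromosome 5 and 0.05 over all regions. At or above it, the medians were −0.10 over 7 regions, −0.14 and −0.16.

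The highest value of the stretch was that of the promoter of DROSHA and C5orf22 whose sequence is given above (chr5:31531949-31532664). It had 225, 246.5 and 236.5 in DMSO and 178, 194 and 200 in APH, so that every APH sample lay below every DMSO sample (log2 −0.31, SE 0.127, limma adjusted p = 0.340). After quantile normalization its log2 change was −0.09, and centred on the median region its groups overlapped. The next region of DROSHA, 805 bp from the start (chr5:31530834-31531288), had 109, 128 and 93.4 in DMSO and 93.3, 111 and 90.0 in APH, with overlap. The GUSBP1 start (chr5:21459149-21459777), in the desert between CDH18 and CDH12, had 115, 148 and 125 in DMSO and 101.5, 100.9 and 96.7 in APH (log2 −0.37, SE 0.151, limma adjusted p = 0.341). All its APH samples lay below the DMSO samples too, and its change was −0.24 after quantile normalization. The region on the C5orf22 side (chr5:31532866-31533306) had 90.4, 92.1 and 75.8 in DMSO and 70.6 in APH replicate 1, and no separate peak in APH replicates 2 and 3.

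The second strongest region lay in the desert to the left of CDH18, 1042421 bp from the nearest known coding start (chr5:18698270-18698886). It had 143, 185 and 157 in DMSO and 152, 166 and 131 in APH, with overlap. At the LINC02100 start (chr5:18745936-18746599) the values were 63.1, 68.3 and 69.1 in DMSO and 60.9, 88.0 and 60.1 in APH, with overlap. Of 2 further regions within 1 kb of that start, chr5:18745469-18745843 had 33.9, 34.1 and 41.8 in DMSO and 36.8, 56.6 and 46.1 in APH, with overlap, and chr5:18744974-18745295 had 42.5 in DMSO replicate 2 and 42.7, 42.3 and 41.1 in APH. Within the noncoding gene LINC02241, 103051 bp from the CDH18 start (chr5:20678764-20679435), they were 95.1, 124 and 88.0 in DMSO and 100.5, 146 and 74.0 in APH. The highest value in this region was in replicate 2 of both groups.

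Of the 43 regions, 5 had every APH sample above the DMSO samples and 3 had the reverse, where the 50148 shared regions gave 4.21% and 14.4%. These shares depended on the level. Below a level of 67.5 they were 13.9% and 2.78% of 36 regions of the stretch, and 6.98% and 4.20% of all regions. At or above it they were 0% and 28.6% of 7 regions, and 1.43% and 24.6% of all regions. Centred on the median region the counts of the 43 were 9 and 4. Leaving out 1 sample gave 5 to 11 and 3 to 8, with the most above without APH replicate 3 (11), DMSO replicate 2 (10) or APH replicate 1 (8) and the most below without APH replicate 2 (8) or DMSO replicate 3 (5). Apart from the CDH6 region these 5 lay between coding genes and were chosen for mention after their values were seen. The one with the smallest p (chr5:28779192-28779562), between CDH9 and CDH6, had a mean of 27.5 ± 6.87 in DMSO and 43.9 ± 5.81 in APH (log2 0.68, SE 0.223, limma adjusted p = 0.293). A region between CDH12 and PRDM9 (chr5:23314852-23315204) had 25.4, 41.6 and 30.5 in DMSO and 50.6, 49.3 and 45.6 in APH (log2 0.59, SE 0.225, limma adjusted p = 0.313). A region in LINC02899, between PRDM9 and CDH10 (chr5:24163035-24163452), had 29.9, 44.2 and 29.4 in DMSO and 49.5, 58.9 and 46.2 in APH (log2 0.58, SE 0.227, limma adjusted p = 0.322). The last (chr5:29077393-29077825) had means of 29.9 ± 5.77 and 40.8 ± 3.48 (log2 0.45, SE 0.213, limma adjusted p = 0.404). In these 4 regions DMSO replicate 2 was the highest of the DMSO samples. The regions above were weak ones of the deserts, and 2 of the 3 below were the strong starts of DROSHA with C5orf22 and of GUSBP1.

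**Figure D5:**
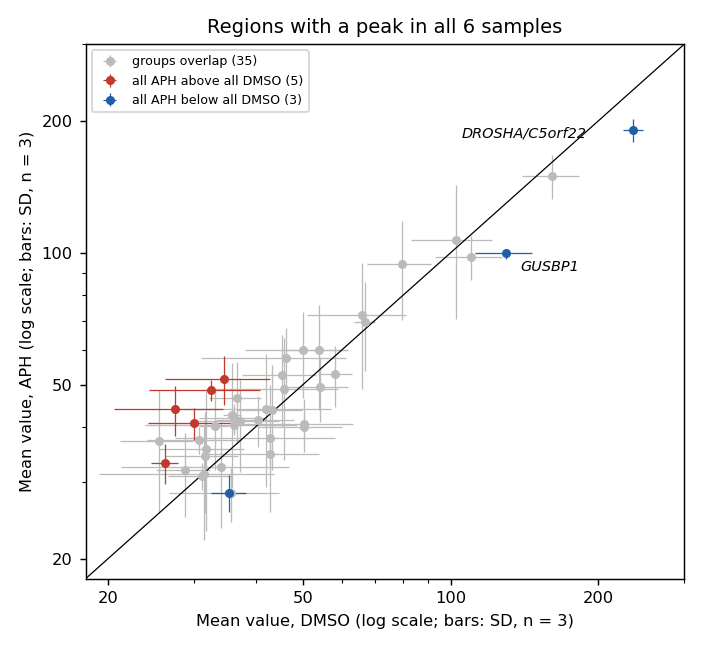
Mean value in APH against mean value in DMSO (both log axes, bars SD, n = 3) for the 43 shared regions, with the line of equal values. The 5 regions in red, with all APH samples above all DMSO samples, have low values, and 2 of the 3 in blue, with the reverse, are the DROSHA with C5orf22 and the GUSBP1 starts.

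The start peaks of other cadherins and of catenins give the setting of the 5 members in these cells. The list also holds CDH13 (T-cadherin), which is tied to the membrane by a lipid anchor, lacks the tail that binds catenins and is not a classical cadherin. Of the 21 genes of this list, all outside the stretch, 8 had a start peak in all 6 samples, 2 in some and 11 in none. For comparison, a peak lay within 1 kb of 58.7% to 59.3% of all protein-coding starts in each single sample. The share of coding starts with a peak in all 6 samples was not computed. Those in all samples were the cadherins CDH3 (P-cadherin), CDH15 and CDH24 and the catenin genes CTNNA1, CTNNA3, CTNNB1, CTNND1 and JUP, which encode the proteins that join cadherins to the cytoskeleton. CDH4 had a peak in 2 DMSO samples and CTNNA2 in 5 samples. No start peak was found for CDH1, CDH2, CDH5, CDH7, CDH8, CDH11, CDH13, CDH19, CDH20, CDH22 and CTNND2. Split by family, 10 of the 14 cadherins and 1 of the 7 catenin genes had no start peak, and 3 and 5 had one in every sample. CDH3 had values of 31.3, 37.7 and 32.9 in DMSO and 45.5, 51.3 and 50 in APH at its start, higher in every APH sample. CTNNA1 had 87.7, 91.5 and 85.4 in DMSO and 79.8, 75.6 and 63.9 in APH, CTNNA3 had 154, 190 and 167 in DMSO and 119, 112 and 124 in APH, and CTNND1 had 199, 207 and 192 in DMSO and 154, 178 and 165 in APH, all 3 lower in every APH sample. Over all shared regions 4.21% were higher and 14.4% lower in this way. Below a level of 67.5, where the CDH3 values lie, 6.98% were higher. At or above it 24.6% were lower. The other 4 genes overlapped between groups. Among them CTNNB1, which encodes beta-catenin, had 113, 95.1 and 121 in DMSO and 76.1, 73.3 and 108 in APH.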

How the data were processed

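ATAC-seq peak lists of 3 DMSO and 3 APH samples of RKO cells were used. Per the submitters' processing notes the tools were BWA 0.7.12 and MACS2 2.1.0 and the build hg38. The authors extended alignments, binned them into a coverage map, called peaks per sample without a control and removed duplicates and blacklisted peaks. The deposited signal is the mean coverage over a peak, not scaled to library size by anything stated in the sources used here, so a difference in depth would pass into values and peak numbers.

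Peaks of any samples that shared 1 bp or more were joined into regions on the autosomes and X, and a region took the length-weighted mean of its peaks as value. Shares and values in 1 Mb windows and values of regions were compared on the log2 scale (pseudocount 1 for peak numbers and region values) with limma 3.58.1 with an intensity trend (R 4.3.3) and Benjamini-Hochberg adjustment at 0.05. The pseudocount pulls share changes of weak windows toward a value below 0, since it weighs less in the longer APH lists. With a pseudocount of 0.5 the median share change of the 14 windows was 0.22 in place of 0.19. Single values were compared with two-sided exact permutation tests over samples (Python 3.11.15). The matched-pairs test over peaks of the study was not used, since peaks are not replicates. Gene starts came from RefSeq GRCh38.p14, with the strand of 43 of 125 genes from its promoter table and of 42 from GENCODE by symbol. The genome sequence at hand was not used, being of another build. The scripts were tested on simulated data. No pair of samples shared more than 2 identical peaks.

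Named were all coding genes, deserts and windows of the stretch, noncoding genes with a start peak, regions within 1 kb of a start, the 5 strongest regions shared by all samples and regions with a peak in every sample of 1 condition and none of the other. The other regions named in the cadherin genes and deserts were chosen after their values were seen. Members, lists, rules and tests were chosen with earlier results of these data known. Replicate numbers were not taken as pairs, since the labels name no shared culture. Same-numbered samples deviated together with correlations of −0.01, 0.48 and 0.52 over regions and of 0.08, 0.28 and 0.42 over window shares. Alternatives covered the peaks counted, filters, pseudocounts, centring, bounds, windows, overlap, leaving out each replicate and a replicate block.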

Additional observations from a re-analysis of the deposited data

How the results depend on the processing

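The number, covered length, mean value and relative value of the whole stretch kept their direction under every alternative run for them, but not their size. With an equal number of peaks the difference in number was 4.33 in place of 21.3, in covered length 2.07 kb in place of 6.55 and in mean value −0.294 in place of −3.94, and with peaks at or above the median value the first 2 were 0.333 and 0.0627 kb. With the same peaks, the differences in share of all peaks (−0.00102), in share of the peaks of chromosome 5 (−0.0394) and in the share of desert peaks (−0.000848, in percentage points) were reversed. With values as deposited the median window value change was −0.0286, with 2 calls in the stretch and 711 in the genome, and window 26 to 27 Mb passed (0.38, limma adjusted p = 0.0495). The median peak value gave 1 call in the genome, an equal number of peaks 3 for the share, with −0.0877 in window 24 to 25 Mb, and centring on the median region 1. The region median was −0.10 at or above the median region, and the region at 18698270 had 0.0797 after quantile normalization. The cause was not tested.

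With 1 replicate left out, the difference of APH from DMSO was 0.00944 to 0.0220 in share, 0.167 to 0.388 in share of chromosome 5, 0.05 to 0.09 in relative value, 14.7 to 30.7 in number of peaks, 0.00482 to 0.0179 in desert share and 4.17 to 6.67 in peaks of the cadherin genes. It gave window medians of 0.08 to 0.31 (share) and 0.14 to 0.26 (value), with 0 calls, and region medians of −0.0499 to 0.25, with 0 to 3 calls in the genome, the 3 without DMSO replicate 2. The region median was −0.01 without DMSO replicate 3 and −0.0499 without APH replicate 2. The regions at 20678764 and 18745936 had −0.23 to 0.25 and −0.14 to 0.13.

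Over regions, same-numbered samples each correlated best with their own number only for replicates 2 and 3. Over window shares DMSO replicate 1 also correlated best with APH replicate 1 (0.08), while APH replicate 1 correlated best with DMSO replicate 2 (0.23). The numbers are not a stated pairing. A replicate block gave 98 calls for the share of peaks and 6603 for regions in the genome, 5 of them in the stretch (21459149, 23314852, 24163035, 28779192 and 31531949, limma adjusted p from 0.0118 to 0.0314), and none of the windows of the stretch. For single values the block gave the same differences, with an exact sign-flip p of no less than 0.25 by design.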

Other observations

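The long noncoding gene PURPL, which lies in the desert between CDH9 and CDH6 and is known as a target of p53, had no peak within 1 kb of its start. The nearest region was 22596 bp downstream, with peaks in APH replicates 1 and 2 alone at 23.6 and 24.9. It was chosen for mention after its values were seen, and 4194 of 102770 regions of the genome shared the pattern of 2 APH samples and no DMSO sample.

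The regions nearest to the starts of CDH18, CDH10 and CDH6 lay between 2592 and 2766 bp into the gene. The CDH10 region had no peak in APH replicate 3, and the other 2 had one in every sample. This was seen after the distances were listed and was given no test. No sample had a peak within 1 kb of those 3 starts.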
